A study of Mus musculus with 6 samples.

Results

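The 7 genes described here, Fcna, Vsig4, Timd4, Lyve1, Folr2, F13a1 and Cbr2, are markers of tissue-resident, largely perivascular macrophages. They were chosen by name as the rows of the deposited count table whose Ensembl mouse identifier maps to these symbols, 7 of 57180 genes, and all 7 passed the filter on low counts. The choice was made with earlier results of these data known, so the differences between the groups are given for the 7 genes as a description. Counts of the 7 past the threshold of the fit over all genes stand beside the share of all genes past it and support nothing about the 7. The study asked how macrophages of white adipose tissue differ between mice on a high-fat diet with and without magnesium isoglycyrrhizinate (MGIG), a magnesium salt of a glycyrrhizic acid isomer. The groups sequenced were HFD+MGIG, wild-type mice on a high-fat diet given MGIG (3 libraries), and HFD, wild-type mice kept on that diet without it (3 libraries). The high-fat diet was thus common to all 6 libraries, and no lean group is part of the comparison. Per the series' design text the cells were sorted as F4/80+CD11b+, whereas the extraction protocol names the tissue as the source of RNA. No label gives a strain, age, sex, dose or duration, or says whether a library is 1 animal or a pool, so the spread between libraries may be technical.

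Resident macrophages of adipose tissue lie along blood vessels and in the connective tissue between fat cells, and are maintained largely without input from blood monocytes. They are known for taking up plasma proteins, matrix fragments and dying cells, and in obesity they are accompanied by recruited, lipid-laden macrophages that carry other markers. The 7 genes cover several of these functions. Fcna encodes ficolin A, a secreted lectin that starts the lectin pathway of complement, and Vsig4 encodes a receptor for opsonising C3 fragments. Timd4 encodes a phosphatidylserine receptor for apoptotic cells, Lyve1 a hyaluronan receptor shared with lymphatic endothelium, and Folr2 the beta form of the folate receptor. F13a1 encodes the catalytic subunit of coagulation factor XIII, a transglutaminase that is also abundant in platelets, and Cbr2 encodes a carbonyl reductase.

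The libraries of the groups differed in depth and in content, which bears on every value below. Total counts ranged from 2214456 to 4904302 in HFD+MGIG and from 14437605 to 16740417 in HFD. Gene families that are silent in macrophages (1596 olfactory, vomeronasal and taste receptor, keratin-associated and beta-defensin genes) took 2.93% to 6.42% of counts in HFD+MGIG and 0.0624% to 0.280% in HFD, with HFD+MGIG 2 the highest. From the 90th percentile of their counts per kilobase, a level that such background could give was set for each gene and library, called the background bound. Genes with a mean bound of up to 0.25 of the 6-library mean CPM were called background-limited: 2604 genes, all 7 markers among them. Both groups count toward that mean, so a gene can be admitted through the group in which it is higher. Of the 7 markers this holds for Vsig4 only. With its HFD mean of 14.8 CPM in both groups, its mean bound would have exceeded 0.25 of its mean CPM. Group and library content cannot be told apart in this design. Fold changes are therefore given on a scale of all filtered genes and on a scale of the background-limited genes alone, and each marker is also set against the macrophage content of its own library.

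A list of 18 macrophage identity genes, Adgre1 and Itgam of the sort included, took 1.86%, 0.751% and 1.63% of counts in HFD+MGIG 1, 2 and 3, against 1.73%, 1.76% and 1.91% in HFD 1, 2 and 3. The 7 markers together took 0.525%, 0.154% and 0.431% of counts in HFD+MGIG 1, 2 and 3, against 0.366%, 0.392% and 0.502% in HFD 1, 2 and 3. Of the 18 identity genes, Cx3cr1 was at or under its background bound in all 3 HFD+MGIG libraries, and in HFD+MGIG 2 so were Itgam, Fcgr1 and Mpeg1. None was in HFD. Both shares were lowest in HFD+MGIG 2, the library with the fewest counts and the largest share of silent-family counts. In bulk libraries, fewer cells of a type and less RNA per cell cannot be told apart.

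Per kilobase of exon, 5 of the 7 markers were among the abundant protein-coding genes of these libraries. Among 21745 protein-coding genes ranked by mean CPM (counts scaled to the library total) per kilobase, Fcna ranked 60 in HFD+MGIG and 142 in HFD, with 459 ± 214 CPM per kilobase in HFD+MGIG and 261 ± 84.3 in HFD (SD, n = 3 each). Folr2 ranked 80 in HFD+MGIG and 105 in HFD, F13a1 ranked 102 in HFD+MGIG and 103 in HFD, and Cbr2 ranked 113 in HFD+MGIG and 148 in HFD. Lyve1 stood lower, at rank 275 in HFD+MGIG and 450 in HFD, with 95.5 ± 54.7 CPM per kilobase in HFD+MGIG and 89.3 ± 26.6 in HFD. Timd4 (25.6 ± 13.2 CPM per kilobase in HFD+MGIG and 26.9 ± 9.52 in HFD) and Vsig4 (18.01 ± 2.95 in HFD+MGIG and 9.95 ± 4.47 in HFD) were the lowest of the 7 in every library. The order at the top differed between the groups. Fcna was at place 1 of the 7 in each HFD+MGIG library, but at place 3 or 4 in each HFD library, behind F13a1 and Folr2. Folr2, F13a1 and Cbr2 did not differ from one another beyond their SDs in HFD+MGIG, and the means of F13a1 and Folr2 did not in HFD.

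The genes lie apart in the mouse genome (mm10), apart from Lyve1 and Folr2, which share a chromosome, and Timd4 and Cbr2, which share another. Fcna (ENSMUSG00000026938) spans chr2:25624666-25628030 on the minus strand, and Vsig4 (ENSMUSG00000044206) spans chrX:96247203-96293438, also minus. Timd4 (ENSMUSG00000055546), at chr11:46810800-46844332, is the only one of the 7 on the plus strand. Lyve1 (ENSMUSG00000030787) spans chr7:110850607-110863239, Folr2 (ENSMUSG00000032725) chr7:101839988-101857194, F13a1 (ENSMUSG00000039109) chr13:36867178-37050244 and Cbr2 (ENSMUSG00000025150) chr11:120729489-120732114. Counts were taken over exons of 1327 bases in Cbr2 to 6739 bases in F13a1. Antisense genes overlap the exons of 3 of them, and no label or header states whether counting used strand. The overlap is 975 bases between Folr2 and Gm10602, which had 40, 30 and 64 counts in HFD+MGIG 1, 2 and 3 and 63, 90 and 75 counts in HFD 1, 2 and 3. The overlaps of Fcna with Fcnaos (90 bases) and of F13a1 with Gm30489 (74 bases) involve antisense genes with at most 1 and at most 9 counts in a library.

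Promoter windows of 250 bases before the RefSeq start (GRCm38.p6) were found for 6 of the 7 genes, all but Lyve1. They were searched on both strands for letters known from macrophage gene promoters, the PU.1 core GAGGAA and the MAF-type site TGCTGA. No match of one overlapped a match of the other. PU.1 is the ETS factor of the myeloid lineage, and MAF factors are active in resident macrophages. Shown are the windows of Fcna, Vsig4 and Cbr2, the 3 genes whose groups did not overlap on the background-limited scale, and of F13a1, the gene with the smallest fold change on it. Each is printed 5′ to 3′ on the gene's own strand, with matches to either set of letters, on either strand, in capitals.
Fcna promoter, chr2:25627975-25628224, minus strand: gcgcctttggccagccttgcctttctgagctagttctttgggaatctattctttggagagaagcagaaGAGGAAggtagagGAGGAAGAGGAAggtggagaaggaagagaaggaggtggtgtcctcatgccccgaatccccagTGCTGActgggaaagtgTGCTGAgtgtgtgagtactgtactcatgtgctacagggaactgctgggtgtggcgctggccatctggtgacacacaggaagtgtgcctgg
Vsig4 promoter, chrX:96293439-96293688, minus strand: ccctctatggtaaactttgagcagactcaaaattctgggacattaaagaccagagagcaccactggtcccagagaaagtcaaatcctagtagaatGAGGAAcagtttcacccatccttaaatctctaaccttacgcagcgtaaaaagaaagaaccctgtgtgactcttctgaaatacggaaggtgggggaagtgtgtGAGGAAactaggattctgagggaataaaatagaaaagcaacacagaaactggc
Cbr2 promoter, chr11:120732022-120732271, minus strand: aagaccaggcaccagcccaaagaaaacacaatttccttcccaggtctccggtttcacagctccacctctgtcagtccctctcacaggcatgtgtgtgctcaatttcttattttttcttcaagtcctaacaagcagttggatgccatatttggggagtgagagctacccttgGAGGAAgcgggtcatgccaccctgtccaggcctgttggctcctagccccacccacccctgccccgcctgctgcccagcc
F13a1 promoter, chr13:37050245-37050494, minus strand: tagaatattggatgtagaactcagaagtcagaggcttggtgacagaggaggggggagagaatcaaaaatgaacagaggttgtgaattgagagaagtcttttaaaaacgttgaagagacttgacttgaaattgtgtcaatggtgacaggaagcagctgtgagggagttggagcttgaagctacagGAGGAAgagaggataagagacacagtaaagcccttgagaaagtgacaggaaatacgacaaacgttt

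GAGGAA stood 3 times in the Fcna window, 2 times in that of Vsig4 and 1 time each in those of F13a1 and Cbr2, and was not found in those of Timd4 and Folr2. Across 32851 RefSeq windows of the same length, 23.3% held it at least 1 time and 0.429% held it 3 or more times. TGCTGA stood 2 times in the Fcna and Timd4 windows and 1 time in that of Folr2, against 16.1% of all windows with at least 1 match. The C/EBP letters TTGCNNAA and the MEF2 motif were found in none of the 6 windows, against 9.56% and 3.20% of all windows. These matches are letters in a window and were not tested as sites.

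Both complement genes, Fcna and Vsig4, had the higher mean CPM in HFD+MGIG, with 1 HFD+MGIG library inside the range of HFD. Fcna was measured at 858, 298 and 735 CPM in HFD+MGIG 1, 2 and 3, against 299.6, 285 and 493 CPM in HFD 1, 2 and 3. HFD+MGIG 1 and 3 lay above every HFD library, while HFD+MGIG 2 lay beside HFD 1 and 2, so the groups overlapped. The means were 630 ± 294 CPM in HFD+MGIG and 359 ± 116 CPM in HFD (SD, n = 3 each), and the bound on background was at most 12.9 CPM. Vsig4 was measured at 28.9, 21.7 and 29.6 CPM in HFD+MGIG 1, 2 and 3, against 10.9, 10.9 and 22.4 CPM in HFD 1, 2 and 3. The only overlap came from HFD 3, which lay just above HFD+MGIG 2. The value in HFD+MGIG 2 rests on 48 counts, with a 95% exact binomial interval of 16.0 to 28.7 CPM, and its background bound is 13.96 CPM. In that library Vsig4 was nearest to its bound of the 7 markers after Timd4. Its means were 26.7 ± 4.38 CPM in HFD+MGIG and 14.8 ± 6.63 CPM in HFD.

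The uptake receptors had similar means in both groups, with a wider spread in HFD+MGIG. Timd4 was measured at 61.9, 24.4 and 80.5 CPM in HFD+MGIG 1, 2 and 3, against 44.3, 48.7 and 82.1 CPM in HFD 1, 2 and 3. Its lowest value, in HFD+MGIG 2, rests on 54 counts (95% exact binomial interval 18.3 to 31.8 CPM) and lies close to its background bound of 20.4 CPM. The highest library of each group was number 3, and the groups overlapped over most of their range. Lyve1 was measured at 415, 103 and 318 CPM in HFD+MGIG 1, 2 and 3, against 232, 201 and 349 CPM in HFD 1, 2 and 3. HFD+MGIG held both the highest and the lowest library, and the means were 279 ± 160 CPM in HFD+MGIG and 261 ± 77.7 CPM in HFD. Folr2 was measured at 730, 249.7 and 575 CPM in HFD+MGIG 1, 2 and 3, against 518, 568 and 673 CPM in HFD 1, 2 and 3. Here too HFD+MGIG 1 was the highest and HFD+MGIG 2 the lowest of the 6, so the HFD values lay inside the HFD+MGIG range.

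The enzymes F13a1 and Cbr2 were again lowest in HFD+MGIG 2. F13a1, the marker with the most counts, was measured at 2703, 672 and 2225 CPM in HFD+MGIG 1, 2 and 3, against 2207, 2495 and 3063 CPM in HFD 1, 2 and 3. The highest value was in HFD 3 and the lowest in HFD+MGIG 2, and the other 4 libraries lay between 2207 and 2703 CPM. Cbr2 was measured at 452, 176 and 343 CPM in HFD+MGIG 1, 2 and 3, against 348, 307 and 338 CPM in HFD 1, 2 and 3. The HFD libraries were close together (331 ± 21.2 CPM), and HFD+MGIG lay on both sides of them (324 ± 139 CPM). In CPM, then, the groups overlapped for all 7 markers. The share of all genes whose groups overlapped in CPM was not computed.

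**Figure D1:**
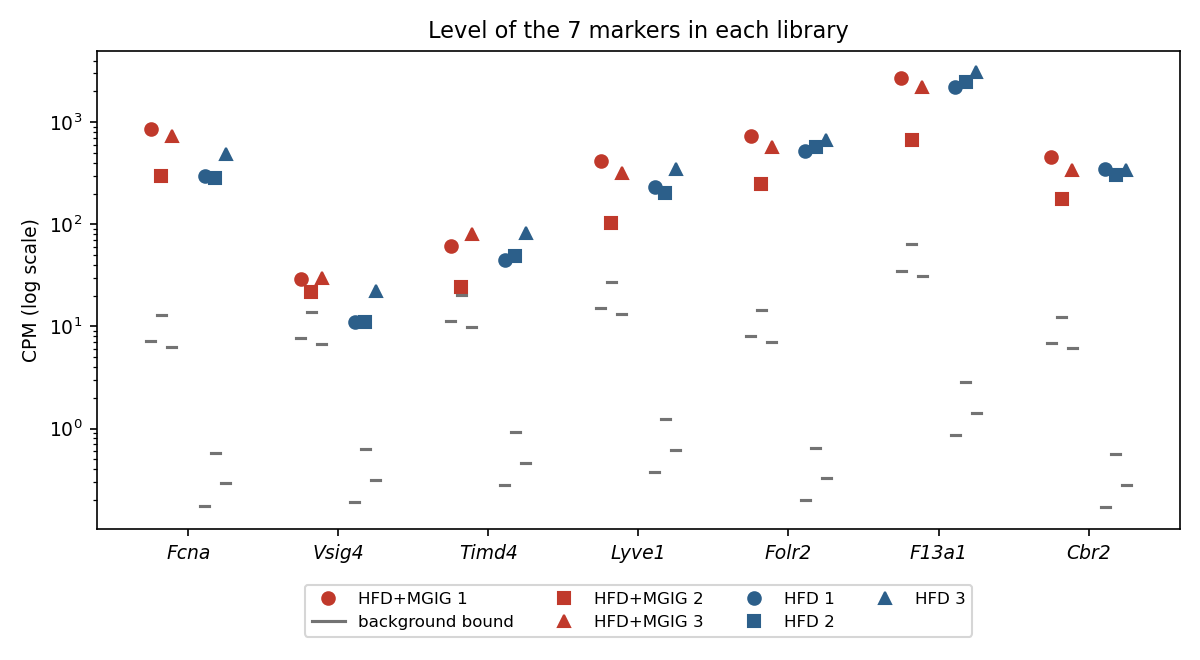
CPM of each marker (log axis) in the 3 HFD+MGIG libraries (red, left) and the 3 HFD libraries (blue, right), with the marker shape giving the library number and a grey dash the background bound of that library. HFD+MGIG 2 is the lowest of the HFD+MGIG libraries for all 7 genes, and its Timd4 value of 24.4 CPM lies just above its bound of 20.4 CPM.

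The direction of most markers depended on which genes set the scale. Over all filtered genes, 2 of 7 log2 fold changes (HFD+MGIG over HFD) were above 0: Fcna at 0.55 (SE 0.54) and Vsig4 at 0.56 (SE 0.36). The other 5 were below 0, at -0.15 (SE 0.55) for Lyve1, -0.30 (SE 0.48) for Cbr2, -0.33 (SE 0.45) for Timd4, -0.44 (SE 0.53) for Folr2 and -0.73 (SE 0.62) for F13a1. On this scale the 2604 background-limited genes had a median of -0.91, against 0.38 for all 23055 genes, so all 7 markers lay above the first median and 5 lay below the second. With edgeR's quasi-likelihood test and a Benjamini-Hochberg adjusted threshold of 0.05, 0 of 7 markers passed on this scale, while 42.9% of all genes were called higher and 17.8% lower. At an unadjusted p under 0.05 the count was also 0, with DESeq2 it was 0, and with limma voom it was 2 (Fcna and Vsig4, both higher). Without HFD+MGIG 2 it was 1 (Fcna).

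Among the background-limited genes alone, scaled to one another, all 7 markers were above 0. Here CPM was scaled to the total of these genes alone and by edgeR's TMM factors, which ran from 0.958 to 1.05. It was 1684, 1121 and 1627 for Fcna in HFD+MGIG 1, 2 and 3, against 456, 438 and 758 in HFD 1, 2 and 3. Every HFD+MGIG library of Fcna lay above every HFD library. Vsig4 had 56.8, 81.6 and 65.4 in HFD+MGIG 1, 2 and 3, against 16.6, 16.8 and 34.5 in HFD 1, 2 and 3, also without overlap. Cbr2 had 887, 661 and 759 in HFD+MGIG 1, 2 and 3, against 529, 472 and 520 in HFD 1, 2 and 3, without overlap and with a smaller gap. The log2 fold changes were 1.43 (SE 0.25) for Fcna, 1.55 (SE 0.32) for Vsig4 and 0.60 (SE 0.15) for Cbr2. They were 0.68 (SE 0.30) for Lyve1, 0.58 (SE 0.30) for Timd4, 0.44 (SE 0.19) for Folr2 and 0.10 (SE 0.27) for F13a1. The median of the 7 was 0.60, against 0.03 for all 2604 genes. The share of the 2604 genes without overlap on this scale was not computed.

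With the same threshold, 3 of the 7 markers (Fcna, Vsig4 and Cbr2) passed among the background-limited genes as higher and 0 as lower, where 4.49% of the 2604 genes were called higher and 6.26% lower. Vsig4 counts as background-limited only through its level in HFD+MGIG. Its call on this scale, and its place in this count, thus rest on the contrast itself and are no second test. The marker count changed when single libraries were left out, and so did the 117 calls higher among all background-limited genes. It was 0 without HFD 1 and without HFD 2 (12 and 19 of all genes). It was 1 without HFD+MGIG 3 (Fcna, 71 of all genes) and 2 without HFD+MGIG 1 or without HFD 3 (Fcna and Vsig4, 106 and 17 of all genes). It was 5 without HFD+MGIG 2 (Lyve1 and Folr2 in addition, 154 of all genes). Without HFD 1 and without HFD 2, the log2 fold changes were 1.29 and 1.27 for Fcna and 1.35 and 1.37 for Vsig4. Subtracting the median background of each library left the same 3 genes past the threshold, with Vsig4 at 1.54 and Fcna at 1.55. DESeq2 on the same genes also called these 3.

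**Figure D2:**
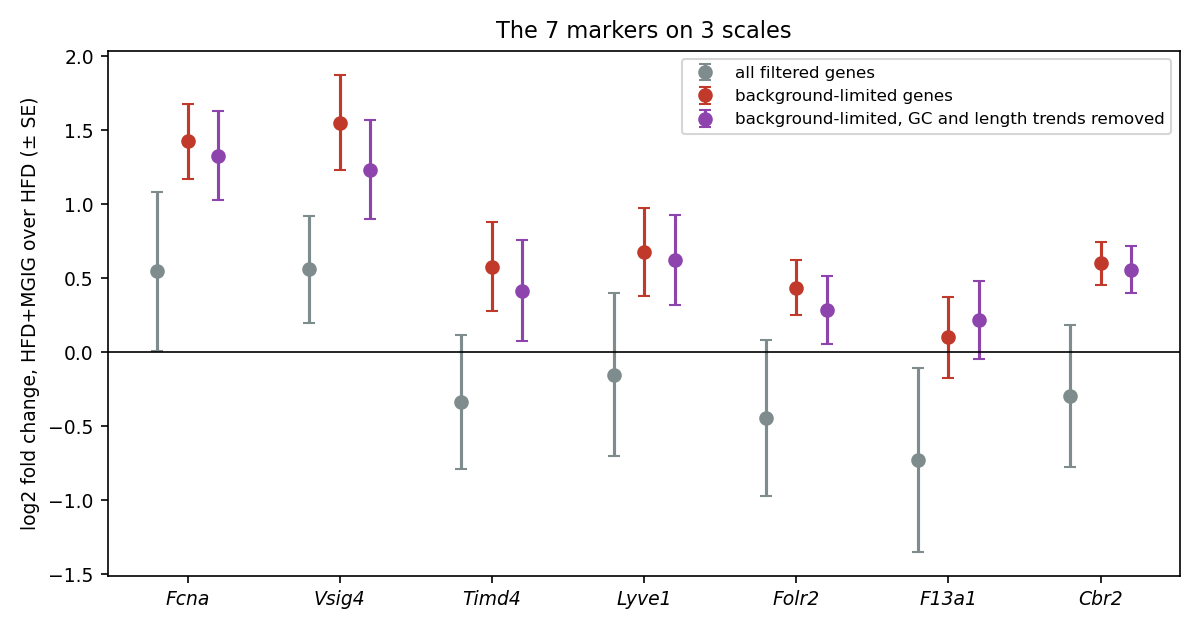
Log2 fold change of HFD+MGIG over HFD for each marker (points, ± SE) scaled over all filtered genes (grey), over the background-limited genes (red) and over the background-limited genes with GC and length trends removed (purple). Fcna and Vsig4 lie above 0 on all 3 scales, whereas the other 5 lie below 0 only on the scale of all filtered genes.

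Another view scales each library by its own macrophage counts in place of its total. It gives the counts of each marker per 1000 counts of the 18 macrophage identity genes in the same library. The denominator was added after the values had been seen. By this ratio Fcna stood at 46.2, 39.6 and 45.0 in HFD+MGIG 1, 2 and 3, against 17.3, 16.2 and 25.9 in HFD 1, 2 and 3. HFD+MGIG 2 lay near the other HFD+MGIG libraries and above every HFD library. The means of 43.6 ± 3.49 and 19.8 ± 5.30 in HFD+MGIG and HFD (SD, n = 3 each) gave a ratio of 2.21. Vsig4 stood at 1.56, 2.89 and 1.81 in HFD+MGIG 1, 2 and 3, against 0.631, 0.621 and 1.18 in HFD 1, 2 and 3. Its groups did not overlap either, with a ratio of means of 2.57, and its highest value came from the library with the most background. Cbr2 stood at 24.3, 23.4 and 21.0 in HFD+MGIG 1, 2 and 3, against 20.1, 17.4 and 17.8 in HFD 1, 2 and 3, a ratio of means of 1.24 without overlap.

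For the other 4 markers the groups overlapped by this ratio. Lyve1 had a ratio of means of 1.29, Timd4 of 1.20 and Folr2 of 1.11. F13a1 was the one marker with a mean below that of HFD, at 124 ± 30.1 in HFD+MGIG and 143 ± 16.7 in HFD, and its lowest library was HFD+MGIG 2 at 89.4. In all, 3 of 7 markers were higher without overlap and 0 lower, where 4.22% of the background-limited genes were higher and 36.3% lower without overlap. The denominator moved the count. Without Lyz2, the lysozyme gene that gives many of the counts in the denominator, it was 4 of 7, with Folr2 in addition, where 6.11% of the background-limited genes were higher. Per count of Csf1r alone, the growth factor receptor of all macrophages, it was 7 of 7, with a median ratio of 1.87, where 12% of the background-limited genes were higher. Csf1r itself had 907 ± 519 CPM in HFD+MGIG and 1575 ± 243 CPM in HFD, and per count of it 18 of 36 other resident macrophage genes were also higher without overlap, with a median ratio of 1.52. Of these 36 genes, 30 are background-limited.

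**Figure D3:**
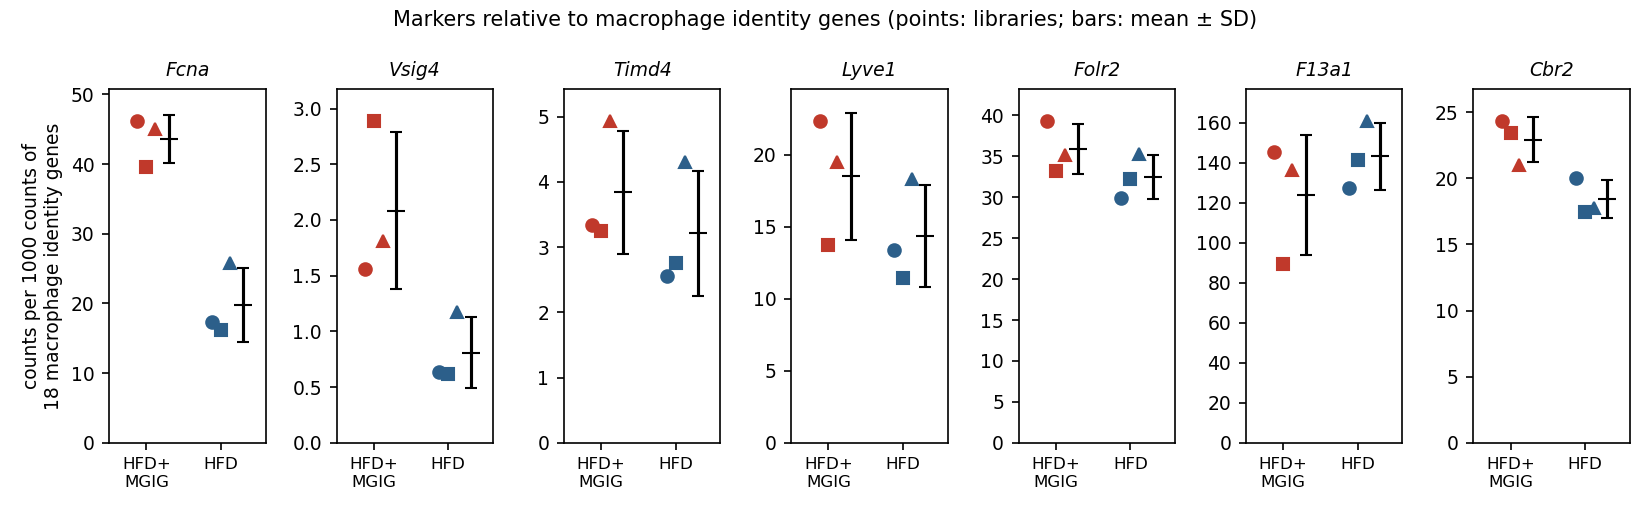
Counts of each marker per 1000 counts of 18 macrophage identity genes in the same library, with each axis starting at 0, for HFD+MGIG (red, left) and HFD (blue, right). Points are libraries, shaped by library number, and bars are mean ± SD of 3 libraries. The groups are apart for Fcna, Vsig4 and Cbr2 and overlap for Timd4, Lyve1, Folr2 and F13a1.

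Transcript length and base composition moved with the fold changes. Across the 2604 background-limited genes, Spearman's rho between the log2 fold change and exon length was -0.25, and -0.22 with GC content, as a description across genes. The 347 genes of at most 1500 bases had a median of 0.22, with 8.36% called higher and 1.15% lower. The 842 genes of 1500 to 3000 bases had a median of 0.08, with 3.44% called higher and 3.8% lower. The 1028 genes of 3000 to 6000 bases had a median of -0.07. The 387 genes of more than 6000 bases had a median of -0.02, with 6.46% called higher and 11.9% lower. Fcna (1374 bases), Vsig4 (1484 bases) and Cbr2 (1327 bases) are the 3 shortest of the 7, and F13a1 (6739 bases) is the longest. Transcript GC was 55.5% in Fcna and 56.9% in Cbr2, and between 44.4% (Timd4) and 51.8% (Folr2) in the others. After both trends had been removed from each library, an alternative added after the data were seen, Fcna kept 1.33 (SE 0.30) and Vsig4 1.24 (SE 0.33). Lyve1 stood at 0.63 (SE 0.31), Cbr2 at 0.56 (SE 0.16), Timd4 at 0.42 (SE 0.34), Folr2 at 0.29 (SE 0.23) and F13a1 at 0.22 (SE 0.26). All 7 were still above 0, and 1 of 7, Fcna, passed the threshold.

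**Figure D4:**
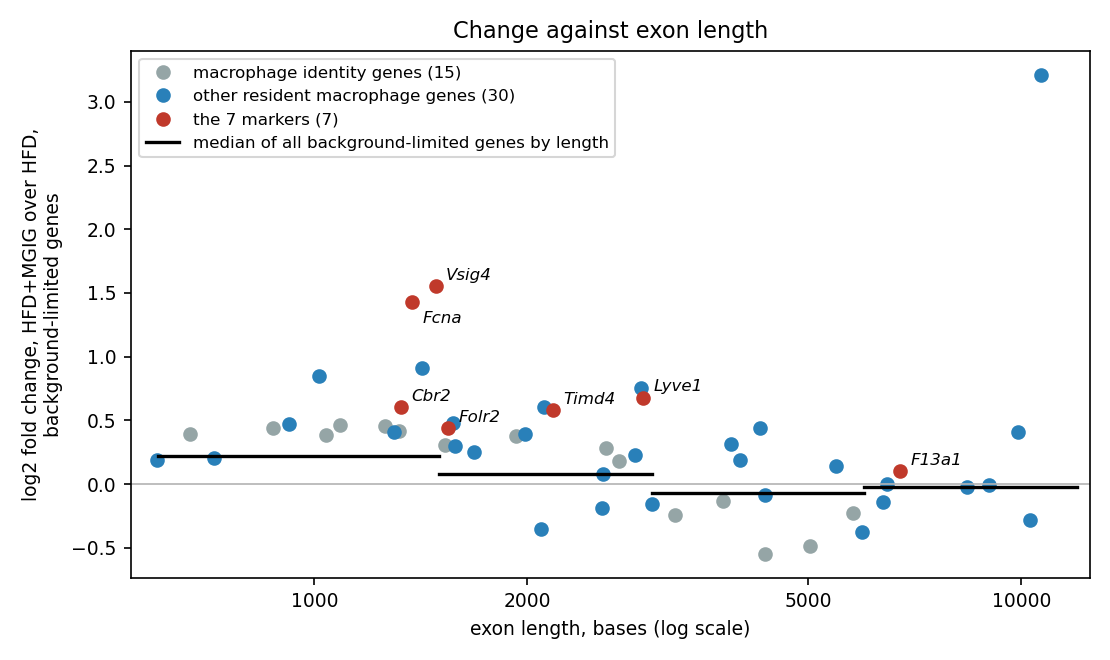
Log2 fold change of HFD+MGIG over HFD on the background-limited scale against exon length (log axis) for the 7 markers (red), 30 other resident macrophage genes (blue) and 15 macrophage identity genes (grey). Black lines are medians of all background-limited genes by length class. They are 0.22 up to 1500 bases, 0.08 from 1500 to 3000 bases, -0.07 from 3000 to 6000 bases and -0.02 above 6000 bases. Fcna and Vsig4 lie well above the other short genes shown.

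Within HFD, whose libraries had similar depths, 6 of the 7 markers were highest in HFD 3, all but Cbr2. So were 34.0% of the background-limited genes, 16 of 36 other resident macrophage genes and 12 of 18 macrophage identity genes. The level in HFD 3 over the mean of HFD 1 and 2 was 2.05 for Vsig4, 1.77 for Timd4, 1.69 for Fcna and 1.61 for Lyve1. It was 1.30 for F13a1, 1.24 for Folr2 and 1.03 for Cbr2. The median of the 7 was 1.61, against 0.992 for the background-limited genes, of which 1.38% exceeded 1.5. Among 36 other resident macrophage genes the median was 1.04 and 3 exceeded 1.5, and among the 18 macrophage identity genes it was 1.07 and 2 exceeded 1.5. This is 1 library against the other 2 of its group, without replicate or test.

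The 7 profiles over the 6 libraries were alike to different degrees. For these profiles log2 CPM was scaled with TMM factors, which over all filtered genes was 1.31 for HFD+MGIG 2. The Pearson correlation of a marker's log2 CPM with the mean of the other 6, over 6 libraries that share their depth and background, was 0.990 for Lyve1, 0.944 for Timd4, 0.937 for Folr2 and 0.914 for Cbr2. It was 0.886 for F13a1, 0.806 for Fcna and 0.421 for Vsig4. On the background-limited scale F13a1 was the least like the rest, at 0.452, and Fcna the most, at 0.967. The protein-coding genes with the profile most like the mean of the 7, out of 9887 with at least 10 CPM, were P2ry13, a purinergic receptor (0.993), the chemokine gene Ccl8 (0.984), the chaperone gene Hsph1 (0.983), the chemokine gene Ccl6 (0.983), the chemokine receptor gene Ccr1 (0.983) and Cd209b, a C-type lectin (0.982). Among the background-limited genes they were Idh1 (0.989), Ccl8 (0.980) and Vapa (0.976) out of 2594 genes. Ccl8 was named on both scales.

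Other genes known from resident macrophages, a list of 36 of which 35 were tested, varied in direction with the scale. Over all filtered genes the calls were 1 higher and 2 lower, where 42.9% of all genes were higher and 17.8% lower, and the median was -0.63. Stab1, a scavenger receptor, fell to 127 ± 49.1 CPM in HFD+MGIG, against 243 ± 10.8 CPM in HFD (SD, n = 3 each). Its log2 fold change was -1.20 (SE 0.44, edgeR adjusted p = 0.0334). In HFD+MGIG 2 it had 76.3 CPM, under its background bound of 96.8 CPM. Gatm, an enzyme of creatine synthesis, fell to 46.2 ± 15.2 CPM in HFD+MGIG, against 82.0 ± 11.8 CPM in HFD, by 1.11 on the log2 scale (SE 0.38, edgeR adjusted p = 0.0237). Its value in HFD+MGIG 2, 29.8 CPM, lay close to its background bound of 28.2 CPM. Both calls were lost without HFD+MGIG 3, without HFD 2 and without HFD 3, that of Stab1 also without HFD 1, and both were lost on the background-limited scale (edgeR adjusted p = 0.223 for Stab1 and 0.558 for Gatm). The mannose receptor gene Mrc1 had 676 ± 397 CPM in HFD+MGIG and 1107 ± 178 CPM in HFD, and the haemoglobin scavenger receptor gene Cd163 had 542 ± 263 CPM in HFD+MGIG and 749 ± 29.4 CPM in HFD. Neither passed the threshold (edgeR adjusted p = 0.175 for Mrc1 and 0.245 for Cd163).

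The gene called higher was Cmah, which encodes the enzyme that makes the sialic acid N-glycolylneuraminic acid. It rose to 301 ± 95.4 CPM in HFD+MGIG, against 59.8 ± 6.99 CPM in HFD, by 1.97 on the log2 scale (SE 0.38, edgeR adjusted p = 0.00083). Its highest value was 410 CPM in HFD+MGIG 2, the library in which all 7 markers were lowest within the group, and its mean background bound in HFD+MGIG was 68.3 CPM. With its HFD mean of 59.8 CPM in both groups, its mean bound would have exceeded 0.25 of its mean CPM. Cmah thus counts as background-limited only through its level in HFD+MGIG. Its call on that scale, and its place in the count below, rest on the contrast itself and are no second test. Among the background-limited genes its fold change was 3.21 (edgeR adjusted p = 0.0137). The threshold was then missed when HFD 1, HFD 2 or HFD 3 was left out. There, 5 of 30 list members were called higher and 0 lower, with a median of 0.22, against 4.49% of all genes called higher. Beside Cmah these were Clec10a (log2 fold change 0.75, edgeR adjusted p = 0.0226), Ltc4s (0.84, edgeR adjusted p = 0.0274), Clec4n (0.91, edgeR adjusted p = 0.0251) and Cd209d (0.47, edgeR adjusted p = 0.0424). Clec10a, Clec4n and Cd209d encode C-type lectins and Ltc4s encodes leukotriene C4 synthase, and the 4 were named after their values had been seen. Their log2 fold changes were below 0 over all filtered genes, at -0.14, -0.08, -0.02 and -0.50 in the order Clec10a, Ltc4s, Clec4n, Cd209d. The count was 0 without HFD 2, 1 without each of HFD 1, HFD 3, HFD+MGIG 1 and HFD+MGIG 3, and 10 without HFD+MGIG 2. With the length and GC trends removed it was 3 (Clec10a, Ltc4s and Cmah). Calls higher among all background-limited genes changed too, from 117 to 12, 19 and 17 without HFD 1, 2 and 3. They were 106, 154 and 71 without HFD+MGIG 1, 2 and 3.

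Per count of the macrophage identity genes, 6 of the 36 other resident genes were higher and 7 lower without overlap, where 4.22% of the background-limited genes were higher and 36.3% lower. The lower 7 were Mrc1, Stab1, Gas6, Mgl2, Slco2b1, Mertk and Gatm. The higher 6 were Clec10a, Ltc4s, Clec4n, Cd5l, Cmah and Tmem26, of which Cd5l and Tmem26 had HFD+MGIG means under their background bound and are not background-limited. Mrc1 stood at 52.2, 29.9 and 51.1 per 1000 in HFD+MGIG 1, 2 and 3, against 56.0, 59.1 and 68.6 in HFD 1, 2 and 3. These counts depended on the denominator. Without Lyz2 they were 11 higher and 4 lower, with Mrc1, Mertk and Gatm no longer apart, where 6.11% of the background-limited genes were higher and 26.2% lower. Per count of Csf1r they were 18 higher and 0 lower, where 12% were higher and 3.03% lower. The shares and the counts cover unlike genes. Only 30 of the 36 are background-limited, and Cd209g, Marco, Maf, Cd5l, Tmem26 and Egfr are not. Of these, Cd209g, Cd5l and Tmem26 are among those higher without Lyz2 and per Csf1r, and Maf is among those higher per Csf1r.

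Close relatives of the 7 markers were mostly at background in HFD+MGIG. Of 16 related genes, 13 had a mean in HFD+MGIG at or under the background bound, among them Fcnb, Timd2, Havcr2, Stab2, Folr1, F13b and Cbr3. In HFD the bounds were lower. There, Havcr2 (9.25 CPM against a bound of 0.691 CPM) and Stab2 (3.29 against 2.22) lay above theirs. Fcnb (0.119 against 0.340) and Timd2 (0 against 0.882) did not. The only related genes that passed the threshold were 2 of 10 tested, both lower, where 17.8% of all genes were called lower. Tgm2, the tissue transglutaminase related to F13a1, fell to 114 ± 44.7 CPM in HFD+MGIG, against 354 ± 18.3 CPM in HFD (log2 fold change -1.91, edgeR adjusted p = 0.00438). It stayed lower on the background-limited scale (-0.98, edgeR adjusted p = 0.0071), where F13a1 stood at 0.10. Cd44, a hyaluronan receptor related to Lyve1, fell to 170.2 ± 46.5 CPM in HFD+MGIG, against 290.0 ± 13.8 CPM in HFD (-1.06, edgeR adjusted p = 0.0482), and lost its call on the background-limited scale (edgeR adjusted p = 0.726). That call was also lost without HFD+MGIG 3 and without each HFD library.

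Markers of other cells that express some of the 7 genes were measured beside them. Of 8 lymphatic endothelial genes, which bear on Lyve1, 6 had HFD+MGIG means at or under the background bound, and their summed level was 221 to 270.1 CPM in HFD+MGIG and 302 to 498 CPM in HFD. All 10 platelet genes, which bear on F13a1, had HFD+MGIG means at or under the bound, and their sum was 34.2 to 67.3 CPM in HFD+MGIG and 26.0 to 27.0 CPM in HFD. Of 9 peritoneal macrophage genes, which bear on Timd4 and Vsig4, 6 had HFD+MGIG means at or under the bound, with a sum of 232 to 425 CPM in HFD+MGIG and 850.4 to 1316 CPM in HFD. Over all filtered genes these lists had calls in both directions, where 42.9% of all genes were higher and 17.8% lower. The lymphatic list had 1 higher and 4 lower of 8 tested, and the platelet list 2 higher and 1 lower of 5. The peritoneal list had 3 higher and 3 lower of 9. The sum of 14 blood endothelial genes was 633 to 1191 CPM in HFD+MGIG and 2965 to 3396 CPM in HFD, and all 14 were called lower over all filtered genes, where 17.8% of all genes were. Among the background-limited genes 7 of 8 were called lower, with a median of -1.14, where 6.26% of all genes were. The 16 genes of lipid-associated macrophages had 9 calls lower over all filtered genes and a median of -1.05. Among the background-limited genes their median was -0.05 over 12 genes, with 1 called higher. Genes at or under the bound were counted for HFD+MGIG only, where the bound is higher than in HFD. The part of these cells in the values of the 7 markers was not tested.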

How the data were processed

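RNA sequencing was done on 6 libraries, made with SMART-Seq v4 from 10 ng of total RNA per the labels. The authors deposited estimated counts per gene (57180 genes), which need not be whole: 33.3% to 41.8% of detected genes per library were fractional. The build mm10 and the tools fastp, HISAT2 and StringTie are named in the submitters' processing notes. The counting program and its strand setting are not stated in the sources used. 0 columns of values were left unused. Symbols and exon lengths came from GENCODE M21, which held 51884 of the identifiers, and promoters from RefSeq.

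Counts were rounded to whole numbers, and CPM was scaled by the library total. On the background-limited scale and for the profile correlations it was scaled with TMM factors as well. The whole table was fitted with edgeR 4.0.16 (R 4.3.3; quasi-likelihood, robust, TMM factors, filterByExpr, group as the only term) with Benjamini-Hochberg adjustment over all 23055 genes that passed, at a threshold of 0.05. The background-limited genes were protein-coding, with at least 2 exon blocks, and had TMM factors of their own. Their restriction, DESeq2 1.42.0, limma 3.58.1 (voom), other scalings and filters, the replicate block and leaving out each library were alternatives. Log2 fold changes of fits are HFD+MGIG over HFD. Exact binomial (Clopper-Pearson) intervals cover counting error only.

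The 7 members and all gene lists were chosen with earlier results of these data known. Named genes are the 7, their relatives with counts, the other resident genes with the smallest p, and the nearest profiles, of which only those that bear on a result are printed. Clec10a, Ltc4s, Clec4n, Cd209d, Mrc1 and Cd163, and the genes listed by ratio, were named after their values had been seen.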

Additional observations from a re-analysis of the deposited data

How the results depend on the processing

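Over 16 settings of the main table, Fcna stayed above 0 (log2 fold change 0.18 to 1.55), as did Vsig4 (0.31 to 1.55). The others lay on both sides of 0: Timd4 -0.63 to 0.58, Lyve1 -0.63 to 0.76, Folr2 -0.85 to 0.56, F13a1 -1.16 to 0.21 and Cbr2 -0.70 to 0.72. The cause of these changes was not tested. Depth limits Vsig4 and Timd4 in HFD+MGIG 2 most.

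With 5 CPM in at least 3 libraries, 5 of 7 markers were above 0, 1 (Vsig4) passed as higher, 0 other resident genes were lower, and 4582 genes were higher and 1574 lower, out of fewer genes tested. Library totals gave 1 marker (Vsig4), 2 other resident genes higher and 2426 genes lower. RLE factors gave 4 other resident genes lower and 2 higher, and DESeq2 gave 6 lower and 2 higher. With no filter 18253 genes were higher and 6 other resident genes lower. With limma voom 6880 genes were lower, 2 markers higher, and 15 other resident genes lower and 2 higher.

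The background-limited scale gave 117 genes higher and 163 lower, 7 markers above 0, 3 markers higher, and 0 other resident genes lower and 5 higher. With the median background subtracted it gave 98 higher and 114 lower, with the same counts for markers (7 and 3) and other resident genes (0 and 5). On this scale DESeq2 called 188 genes higher, and removing the GC and length trends left 1 marker and 3 other resident genes higher.

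Same-numbered libraries had correlated deviations of 0.048, 0.26 and 0.079, and HFD+MGIG 1 correlated best with HFD 3 and HFD+MGIG 3 with HFD 1, so the numbers were not taken to pair the libraries. With the replicate block 9833 genes were higher and 4312 lower, 0 markers passed, and 4 other resident genes were lower (Mgl2 and Slco2b1 in addition). On the background-limited scale the block left 2 markers (Fcna and Vsig4) and 2 other resident genes higher.

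Leaving out each library in turn gave 9645 to 12351 genes higher and 2122 to 5563 lower, 2 to 5 markers above 0, 0 to 1 marker higher, 0 to 0 lower, and 1 to 2 other resident genes higher and 0 to 8 lower. On the background-limited scale it gave 12 to 154 genes higher and 54 to 189 lower, 6 to 7 markers above 0, 0 to 5 higher, and 0 to 10 other resident genes higher.

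The log2 fold changes of several other resident genes turned above 0. Clec10a did with library totals (0.14), 5 CPM (0.22), the background-limited genes (0.75; 0.87 with background subtracted) and without HFD+MGIG 2 (0.19). Ltc4s did with RLE factors (0.029) and DESeq2 (0.026), library totals (0.21), 5 CPM (0.29), limma voom (0.18), the background-limited genes (0.84; 0.87 subtracted) and without HFD+MGIG 2 (0.19). Clec4n did with RLE factors (0.091) and DESeq2 (0.087), library totals (0.28), 5 CPM (0.35), limma voom (0.053), the background-limited genes (0.91; 0.90 subtracted), and without HFD+MGIG 2 (0.25), HFD+MGIG 3 (0.0037) or HFD 3 (0.13). Leaving out each library gave -0.58 to 0.19 for Clec10a, -0.32 to 0.19 for Ltc4s and -0.36 to 0.25 for Clec4n. Cd209d (0.47; 0.60 subtracted) and Cd163 (0.14; 0.24 subtracted) did so only on the background-limited scale among the settings run.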
